A study of Mus musculus with 6 samples.

Results

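The genes described here are 32 genes of G2, mitosis and cytokinesis, chosen by symbol, and 31 of them had a probe set that the platform annotation ties to 1 symbol alone. Cyclin B1 (Ccnb1) had no such probe set and has no value here. The 31 genes are part of 18193 genes measured on Affymetrix mouse arrays, and each is represented by its brightest probe set by the mean of the 6 arrays. The arrays profile bone marrow cells sorted as Lin-Sca1+CD150+CD48+, which the study calls committed progenitors. The 3 control arrays hold cells of c-myc f2 N-myc f2 mice, whose floxed alleles stay intact without a recombinase. The 3 double knockout (dKO) arrays hold cells of MxCre c-myc f2 N-myc f2 mice. In these mice Cre is made from the interferon-inducible Mx1 promoter and can delete both genes in cells that answer interferon. The share of cells with both genes deleted was not measured here. All mice were 8 weeks old and of mixed background, and both groups received the interferon inducer pI-pC in 2 daily doses, the last of them 3 days before the cells were taken. Each control array is a pool of 2 mice and each dKO array a pool of 3 mice, so an SD below is the spread between pools. MxCre was present only in the dKO mice, so its own effect and the loss of both genes cannot be told apart.

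Mitosis is driven by a kinase, CDK1, that is switched on by cyclins A and B and switched off when the anaphase-promoting complex (APC/C), an E3 ubiquitin ligase, marks the cyclins for destruction. Most genes that serve it are transcribed in a late wave, in G2, through NF-Y, the MuvB complex with B-MYB, and FOXM1. In resting cells, and in cells in which p53 has induced the CDK inhibitor p21, the same promoters are bound by the DREAM repressor complex, which contacts the cell cycle homology region next to the start site. Levels of these transcripts in a sorted population therefore follow in part how many of its cells are in G2 or mitosis. In such bulk samples, fewer cells in these phases and less RNA per cell cannot be told apart.

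The promoters are shown first because most of them hold letters that the rule for choosing the genes did not use. Sequences come from a set of RefSeq (GRCm38.p6) promoter windows of 300 bases, 250 before the start and 50 from it on. The set used here held a window for 25 of the 32 genes. The genes missing from this set, which need not be missing from RefSeq, were Ccna2, Cdc25c, Foxm1, Aurkb, Incenp, Tpx2 and Kif20a. Below are the 100 bases before the start and the first 20 from it on, read 5′ to 3′ along the gene. They are given for the genes that passed the test described further on (Kif23, Racgap1) and for 3 that did not (Prc1, Ccnb2, Cdk1). Capitals mark CCAAT or its reverse complement ATTGG, the letters NF-Y recognises, and TTTGAA or its reverse complement TTCAAA, the letters of the cell cycle homology region.
Kif23, chr9:61946780-61946899, minus strand: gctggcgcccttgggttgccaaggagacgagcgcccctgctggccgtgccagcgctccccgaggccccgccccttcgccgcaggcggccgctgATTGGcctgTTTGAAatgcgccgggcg
Racgap1, chr15:99651637-99651756, minus strand: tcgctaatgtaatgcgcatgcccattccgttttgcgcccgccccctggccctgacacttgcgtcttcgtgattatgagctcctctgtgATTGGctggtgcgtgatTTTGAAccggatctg
Prc1, chr7:80294351-80294470, plus strand: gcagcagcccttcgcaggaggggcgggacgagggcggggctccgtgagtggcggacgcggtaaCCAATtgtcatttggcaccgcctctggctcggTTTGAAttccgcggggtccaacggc
Ccnb2, chr9:70421535-70421654, minus strand: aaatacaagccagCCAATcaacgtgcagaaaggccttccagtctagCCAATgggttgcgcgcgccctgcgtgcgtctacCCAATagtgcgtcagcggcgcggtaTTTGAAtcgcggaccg
Cdk1, chr10:69352893-69353012, minus strand: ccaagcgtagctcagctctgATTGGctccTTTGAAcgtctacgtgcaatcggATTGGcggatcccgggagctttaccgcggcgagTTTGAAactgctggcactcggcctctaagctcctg

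In each of these 5 promoters TTTGAA lies downstream of a CCAAT or ATTGG and close to the start. The space between the last TTTGAA and the nearest such box before it was 4 bases in Kif23, 12 in Racgap1, 20 in Ccnb2, 27 in Prc1 and 28 in Cdk1. Over the 18 members with both, it ran from 4 in Kif23 to 148 in Bub1b with a median of 29, and it was 97 in Cenpa and 68 in Cenpf; this measure was chosen after the values were seen, and its relation to the changes was not tested. Of the 25 windows, 19 (76%) held TTTGAA on either strand and 21 (84%) held CCAAT on either strand, and 18 (72%) held both. Birc5, Nusap1 and Mad2l1 held neither. The same letters were found in 13.3% and 38.2% of the 14452 windows of all genes tested on the arrays, and in 18.1% and 37.9% of all 27025 RefSeq windows. Of genes of S phase, which are mostly read earlier in the cycle, 35 had a window, of which 11.4% held TTTGAA and 62.9% CCAAT. The palindrome TTCGAA, a variant of the same element, was in 3 of the 25 windows, in Top2a, Bub1 and Bub1b. The palindrome CACGTG, the E-box that MYC with MAX recognises, was in 1 window (4%), that of Anln, against 9.02% over all genes tested. These are matches of letters in a short window. The members with TTTGAA changed by a median log2 of -0.20 (19 genes, from -0.85 to 0.19) and those without it by -0.21 (5 genes, from -0.40 to -0.09). Kif23, Racgap1, Cdk1, Top2a and Mki67 all hold it.

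**Figure D1:**
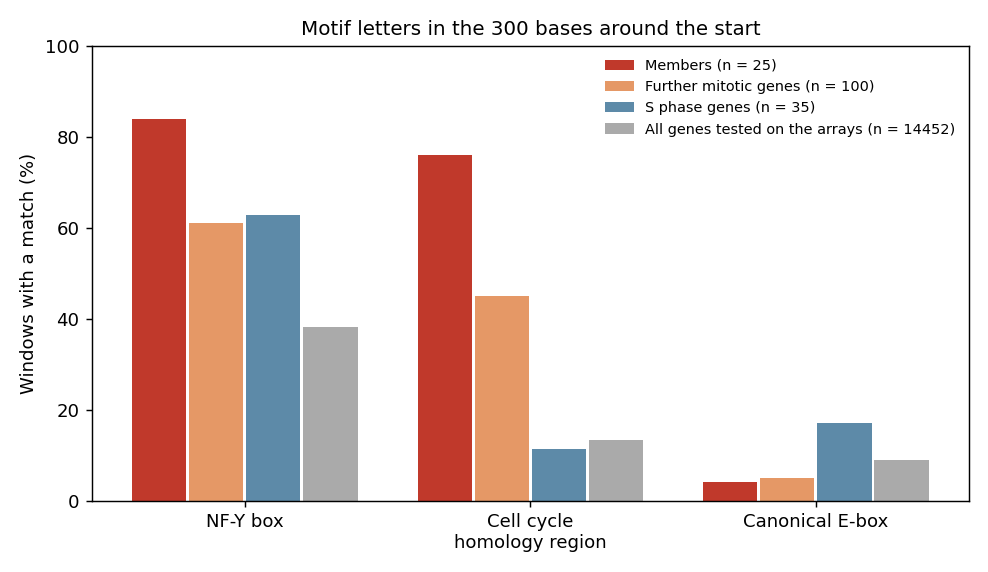
Share of 300-base windows (y axis, percent) that hold the letters of the NF-Y box, the cell cycle homology region and the canonical E-box (x axis), for the members, 100 further mitotic genes with a window, S phase genes and all genes tested. The letters TTTGAA or TTCAAA are found anywhere in the window in 76% of the members and 45% of the further mitotic genes. They are found in 11.4% of the S phase genes and 13.3% of all genes tested.

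Kif23 and Racgap1 were the only members to pass the test, and both fell. They encode both parts of centralspindlin, the motor (MKLP1) and the GTPase-activating protein (CYK4) that bundle midzone microtubules and place the cleavage furrow. The comparison used limma with group as the only term and Benjamini-Hochberg adjustment over all 18193 genes, at a threshold of 0.05. By this rule 2 of 31 members were lower in dKO, where 2.85% of all genes were, and 0 were higher, where 3.12% of all genes were. At an unadjusted p under 0.05, 6 members were lower (9.14% of all genes) and 0 higher (9.1%). The same model without variance sharing between genes called 0 members in either direction, where it called 0.132% of all genes lower and 0.253% higher. With trend and robust settings limma called 2 members lower and 0 higher, where it called 3.62% of all genes lower and 3.73% higher. In either direction 6.45% of the members were called, close to the 5.97% of all genes.

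The Kif23 probe set 1455990_at stood at 9.96, 10.21 and 9.84 in the control pools and at 9.21, 9.13 and 9.11 in the dKO pools (log2 RMA values). All 3 dKO pools lay below all 3 control pools, with a gap wider than the spread within either group. The SD was 0.19 in control and 0.05 in dKO (n = 3), and the mean fell to 9.15, a fall of 0.85 ± 0.17 (SE) on the log2 scale or 1.81-fold (limma, adjusted p = 0.0193). A second probe set, 1453748_a_at, stood at 10.16, 9.91 and 9.78 against 9.18, 8.90 and 8.53 and changed by -1.08 ± 0.22 (limma over all probe sets, adjusted p = 0.0318). The remaining one, 1450827_at, was dim and uneven, from 4.03 to 7.52, and its change of -1.33 ± 0.61 did not pass. Kif23 thus rested on more than 1 probe set.

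Racgap1, measured by 1451358_a_at, stood at 8.66, 8.81 and 8.68 in control and at 8.03, 8.02 and 7.70 in dKO. Here too the groups did not overlap. The mean went from 8.72 ± 0.09 to 7.91 ± 0.19 (n = 3), a fall of 0.80 ± 0.17 or 1.74-fold (limma, adjusted p = 0.0272). Its second probe set, 1421546_a_at, changed by -0.67 ± 0.23 and did not pass, and another, 1441889_x_at, lay at the lower end of the scale in every pool, from 1.85 to 2.21, where no change can be read. The sizes were steady when single pools were left out, from -0.94 to -0.75 for Kif23 and from -0.86 to -0.69 for Racgap1. The calls were not: with each pool left out in turn Kif23 passed only without control 3 or dKO 3 and Racgap1 only without dKO 3, with limma adjusted p up to 0.09 and 0.113, both without control 2, and Racgap1 also missed with the mean of its probe sets (adjusted p = 0.107).

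The other genes of the midzone and the furrow did not pass. The guanine nucleotide exchange factor Ect2, which centralspindlin recruits to activate RhoA, stood at 9.61, 9.32 and 9.28 in control and 9.42, 9.16 and 8.41 in dKO. Only dKO 3 was far below the controls, and the change of -0.41 ± 0.26 became -0.11 without that pool. Anillin (Anln), the scaffold of the contractile ring, changed by -0.31 ± 0.21 at its brighter probe set and by -0.91 ± 0.23 at the other (limma, adjusted p over all probe sets = 0.0779), with overlapping groups at the first. Prc1, which crosslinks antiparallel microtubules in the midzone, stood at 9.46, 9.40 and 9.28 in control and 9.59, 9.50 and 9.48 in dKO. It was the only member whose dKO pools all lay above its control pools, by 0.14 ± 0.16, with a 95% interval from -0.22 to 0.50. The kinesin Kif20a, which carries the passenger complex to the midzone, changed by -0.10 ± 0.20. Within the 6 genes of this role the median change was -0.36, from -0.85 to 0.14; whether Kif23 and Racgap1 differ from their partners was not tested.

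**Figure D2:**
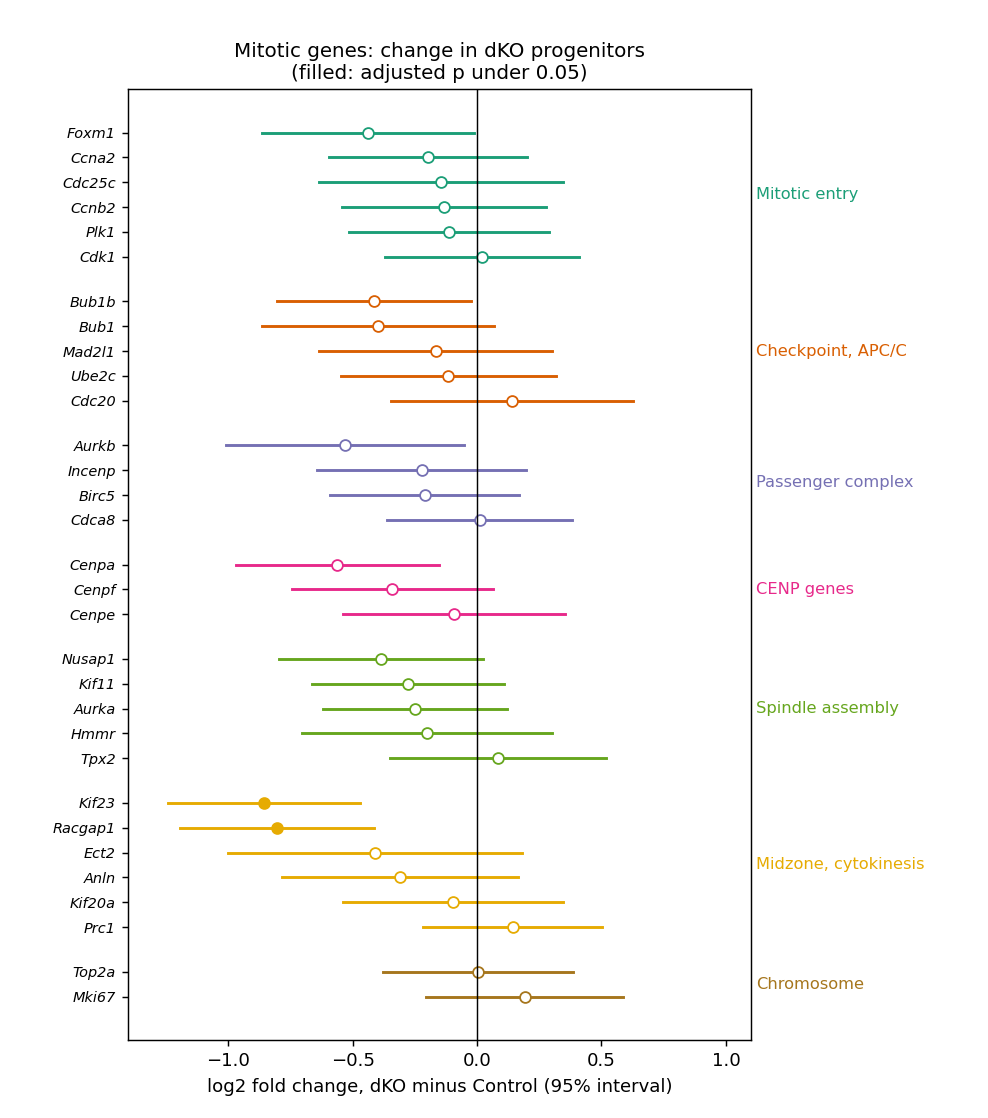
Log2 fold change (x axis, dKO minus Control) of each of the 31 members with its 95% interval from limma, grouped by role; filled circles passed the adjusted threshold. Kif23 (-0.85) and Racgap1 (-0.80) lie furthest to the left, and the intervals of 28 members lie between -1 and 1.

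None of the genes that start mitosis passed the test. Cdk1, the kinase itself, stood at 9.50, 9.28 and 9.52 in control and 9.41, 9.63 and 9.32 in dKO, and the groups lay on top of each other. Its change was 0.02 ± 0.17, with a 95% interval from -0.37 to 0.41. Its partners cyclin A2 (Ccna2, -0.20 ± 0.18) and cyclin B2 (Ccnb2, -0.13 ± 0.18) did not pass, nor did the activating phosphatase Cdc25c (-0.14 ± 0.22) or the polo kinase Plk1 (-0.11 ± 0.18), and all 4 overlapped between the groups. Foxm1, the transcription factor of this gene wave, was lower in all 3 dKO pools, at 7.74, 7.50 and 7.77 against 8.17, 8.31 and 7.84. The change of -0.44 ± 0.19 did not pass (limma, adjusted p = 0.259), and its 3 other probe sets changed by -0.28, -0.15 and -0.03. The last of these lay at the lower end of the scale in every pool, from 1.72 to 2.34, where no change can be read. The median over the 6 measured genes of mitotic entry was -0.14.

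Markers that are widely used to count cycling cells showed no fall that passed the test. Mki67, which encodes the Ki-67 coat of mitotic chromosomes, stood at 12.45, 12.49 and 12.40 in control and 12.86, 12.63 and 12.42 in dKO. The dKO pools 1 and 2 were above every control pool, and the change of 0.19 ± 0.18 did not pass (95% interval from -0.20 to 0.59). Top2a, the topoisomerase that untangles sister chromatids, stood at 10.37, 10.57 and 10.23 in control and 10.38, 10.46 and 10.35 in dKO, a change of 0.00 ± 0.17. Its dimmer probe sets went different ways, by -0.45 and 0.32, and neither passed. Ube2c, the ubiquitin-conjugating enzyme of the APC/C, changed by -0.12 ± 0.19, and the APC/C activator Cdc20 by 0.14 ± 0.22, or by -0.19 and -0.15 at its other probe sets.

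The spindle checkpoint holds the APC/C back until every kinetochore is attached. Its kinase-like protein Bub1b (BUBR1) was lower in all 3 dKO pools, at 8.59, 8.53 and 8.50 against 8.95, 9.15 and 8.75. The change of -0.41 ± 0.17 did not pass (limma, adjusted p = 0.243). A probe set of Bub1b almost as bright changed by -0.17 with overlapping groups, and a dimmer one by -0.04. Bub1, a kinase of the same family, changed by -0.40 ± 0.21 and overlapped, with its dimmer probe set at 0.27. Mad2l1 (MAD2), which binds and holds CDC20, changed by -0.17 ± 0.21. The 5 genes of checkpoint and APC/C had a median of -0.17.

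After Kif23 and Racgap1 the largest differences were those of Cenpa and Aurkb, neither of which passed, while other genes of the centromere and of the chromosomal passenger complex lay nearer to 0. Cenpa, the histone H3 variant that marks centromeres, stood at 9.30, 8.93 and 8.85 in control and 8.51, 8.40 and 8.48 in dKO. No dKO pool reached a control pool, and the change of -0.56 ± 0.18 did not pass after adjustment (limma, adjusted p = 0.121). Its other probe sets changed by -0.65 and -0.34. The outer kinetochore genes Cenpf and Cenpe, a matrix protein and a motor, changed by -0.34 ± 0.18 and -0.09 ± 0.20. Aurkb, the kinase of the passenger complex, stood at 9.40, 9.58 and 9.41 in control and 8.91, 9.31 and 8.57 in dKO. Its change of -0.53 ± 0.21 did not pass (limma, adjusted p = 0.219), and its dimmer probe set changed by -0.10. The other subunits were nearer to 0, with the scaffold Incenp at -0.22 ± 0.19, survivin (Birc5) at -0.21 ± 0.17 and borealin (Cdca8) at 0.01 ± 0.17.

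Among genes of spindle assembly no member passed. The microtubule-bundling protein gene Nusap1 changed by -0.39 ± 0.18, the bipolar motor gene Kif11 by -0.28 ± 0.17 and the kinase gene Aurka by -0.25 ± 0.16, and in each of them no dKO pool reached a control pool. The hyaluronan receptor and spindle protein gene Hmmr changed by -0.20 ± 0.22 and the Aurora A activator gene Tpx2 by 0.08 ± 0.19. The median of these 5 genes was -0.25.

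**Figure D3:**
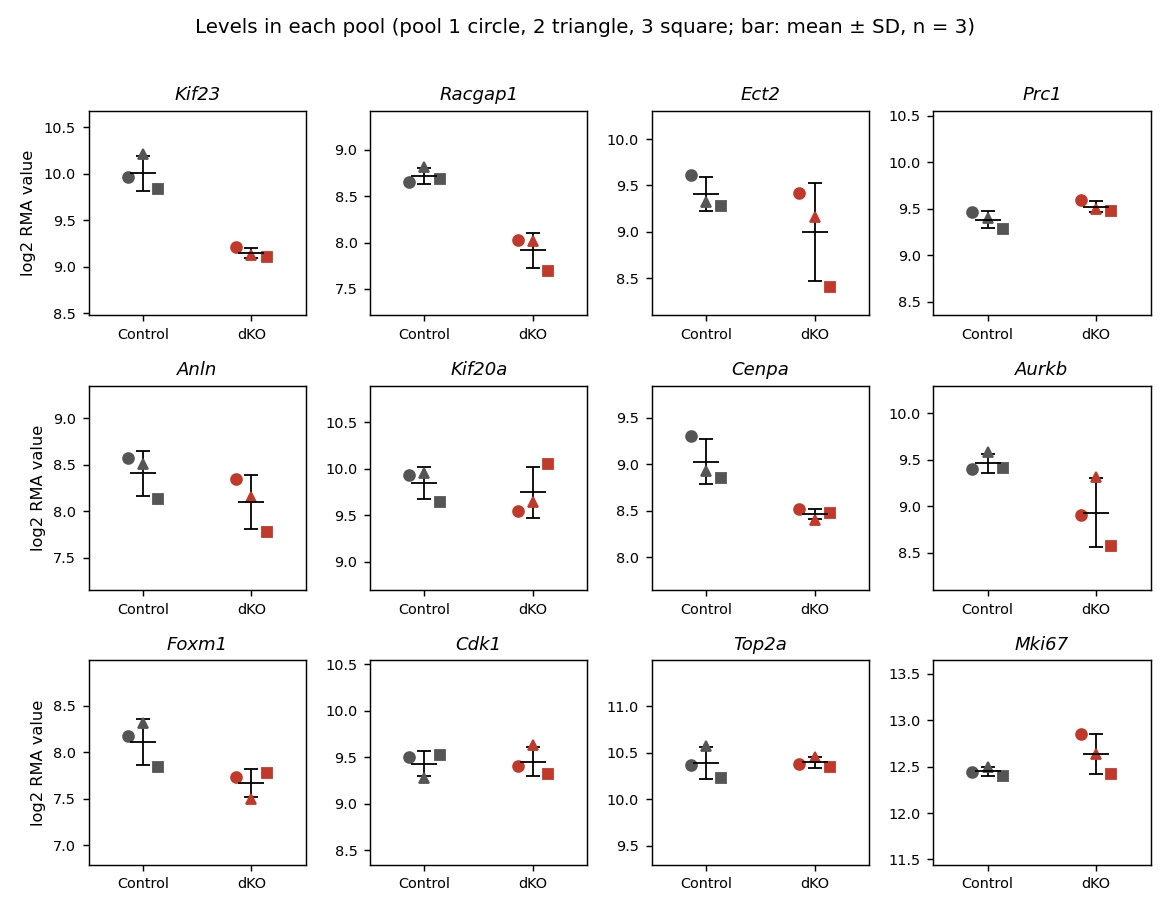
Log2 RMA value (y axis) of 12 members in each control and dKO pool (x axis), with the mean and SD of 3 pools; every panel spans the same range of 2.2 log2 units. The groups are separate for Kif23, Racgap1, Cenpa, Aurkb, Foxm1 and Prc1 and overlap for Ect2, Anln, Kif20a, Cdk1, Top2a and Mki67.

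As a group the members leaned to lower values in dKO by a small amount. The median log2 fold change of the 31 genes was -0.20, against 0.05 over all genes tested, and 24 (77.4%) were below 0, against 42.4% of all genes. In 10 members all dKO pools were below all control pools, and in 1, Prc1, above; over all genes these shares were 10.7% and 12.7%. The 10 were Kif23, Racgap1, Cenpa, Aurkb, Foxm1, Bub1b, Nusap1, Cenpf, Kif11 and Aurka. The median lay between -0.25 and -0.16 in every alternative tried. Counting each of the 72 probe sets of these genes, 59 were below 0 and 3 passed downwards, 2 of Kif23 and 1 of Racgap1. Of the 22 members with several probe sets, 14 had all of them below 0, 1 (Prc1) had both above 0, and 7 (Bub1, Cdc20, Cdca8, Incenp, Racgap1, Top2a and Tpx2) had probe sets of either sign. Racgap1 is among these 7 only through 1441889_x_at (0.02), which lay at the lower end of the scale in every pool. The changes themselves were limited in size. The 95% interval of 28 of the 31 members lay within 1 log2 unit, that is 2-fold, on either side of 0; the exceptions were Kif23, Racgap1 and Aurkb.

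The pools within a group differed about as much as the groups. The median deviation of the members from their own mean over the 6 arrays was 0.10, 0.22 and 0.01 in control 1, 2 and 3, and -0.04, -0.10 and -0.21 in dKO 1, 2 and 3. No dKO pool was above a control pool by this measure, but control 3 and dKO 1 were close. Control 2 held the highest value for 19 of the 31 members and dKO 3 the lowest for 14. Over all genes dKO 3 held the highest value for 5818 of 18193 genes, and its values over all probe sets had the smallest SD, 2.18 against 2.26 to 2.31 in the other arrays. Without dKO 3 the median of the members was -0.18, and with the arrays made equal again in their distribution it was -0.21.

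**Figure D4:**
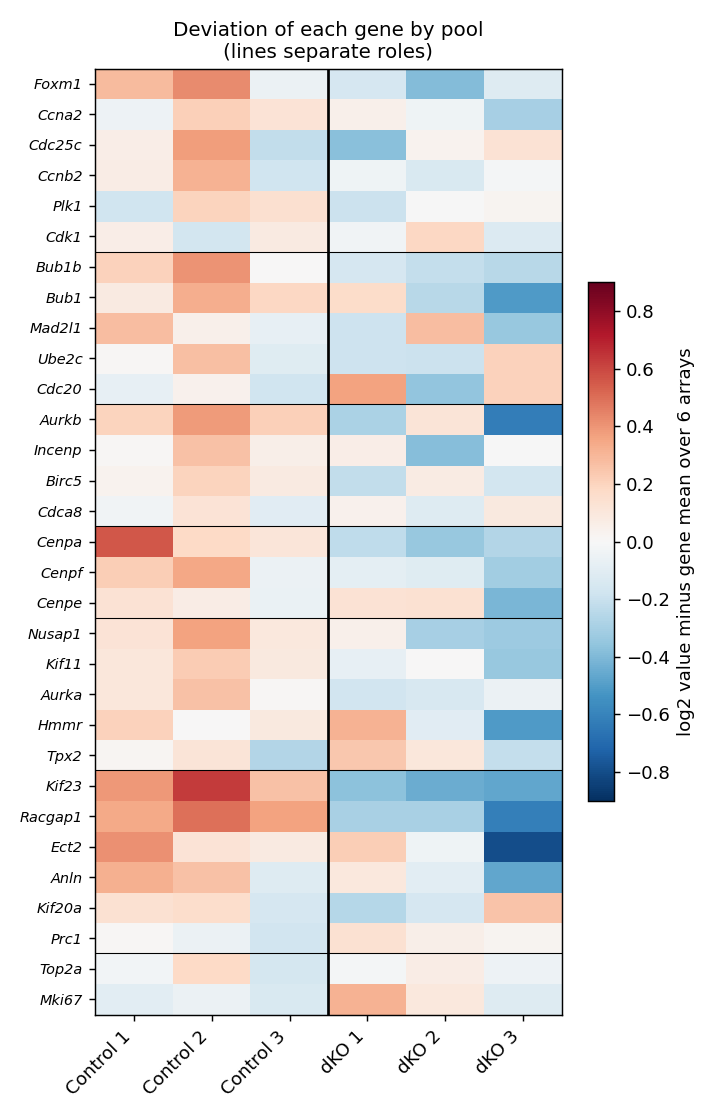
Log2 value of each member minus its mean over the 6 arrays (colour), by gene (rows, in blocks by role) and pool (columns). Control 2 is highest for 19 genes and dKO 3 lowest for 14, and Kif23 and Racgap1 separate the groups in every pool.

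Further mitotic genes, in 5 lists that do not include the members, were closer to 0. Of 115 measured genes, limma called 0 lower and 0 higher, where 5.97% of all genes were called; 10 were lower and 3 higher at an unadjusted p under 0.05, where 9.14% and 9.1% of all genes were. The model without variance sharing called 0, and limma with trend and robust settings called 2 lower, against 3.62% of all genes. Their median was -0.08, and 74 of 115 were below 0. The median was -0.08 for 35 other genes of centromere, kinetochore and checkpoint, -0.16 for 31 of spindle and motors, -0.09 for 21 of condensin and cohesin, -0.09 for 15 of the APC/C and 0.00 for 13 of the CDK1 switch. The smallest p belonged to Knstrn, a kinetochore adaptor of astrin (-0.68 ± 0.17, adjusted p = 0.0528), to the inner kinetochore gene Cenph (-0.69 ± 0.19, adjusted p = 0.0789) and to Kif14, a midzone kinesin that binds PRC1 and citron kinase (-0.69 ± 0.22, adjusted p = 0.121), all from limma. In the APC/C list the leading genes were on the other side, with the subunit Anapc10 at 0.67 ± 0.22 and the conjugating enzyme Ube2s at 0.60 ± 0.21. For the remaining lists these were the kinetochore gene Cenpi (-0.60), the cohesin genes Pds5b (-0.55) and Cdca5 (-0.40), and the CDK1 switch genes Ppp2r2d (0.47) and Ensa (0.33), none of which passed.

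Regulators of this gene wave and S phase genes gave 0 calls in either direction by limma with or without variance sharing between genes. Of 23 genes of the E2F, DREAM and B-MYB list, 0 were lower and 3 higher at an unadjusted p under 0.05 (9.14% and 9.1% of all genes), and limma with trend and robust settings called 2 higher (3.73% of all genes). The DREAM pocket protein gene Rbl2 (p130) stood at 8.18, 7.97 and 8.49 in control and 9.30, 9.04 and 8.72 in dKO, a difference of 0.80 ± 0.21 that did not pass (limma, adjusted p = 0.0624). The atypical repressor E2f8 differed by 0.71 ± 0.19 (adjusted p = 0.0657). Both were higher in every dKO pool. Of the 42 S phase genes, 5 were lower and 2 higher at an unadjusted p under 0.05, 2 were lower under trend and robust settings (3.62% of all genes), and the median was 0.00. The S phase genes with the smallest p were Ung, which removes uracil from DNA (-0.60 ± 0.16, adjusted p = 0.0659), and the licensing factor Cdt1 (-0.61 ± 0.18, adjusted p = 0.0858), both from limma. Whether the members differ from these lists was not tested.

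**Figure D5:**
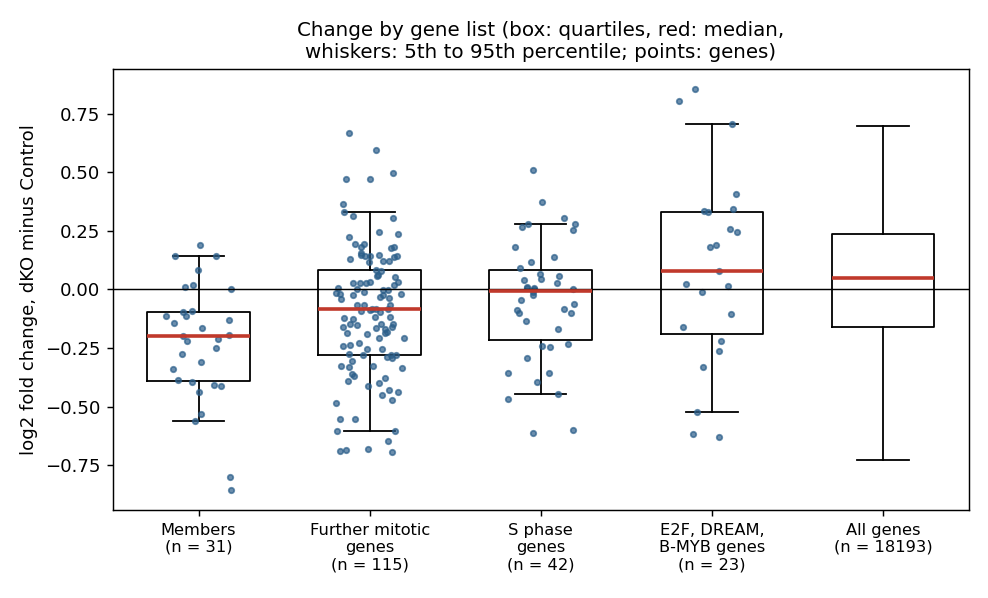
Log2 fold change (y axis) of the members, 115 further mitotic genes, 42 S phase genes, 23 regulators and all genes (x axis); boxes show quartiles, red lines medians and whiskers the 5th to 95th percentile. The medians are -0.20, -0.08, 0.00, 0.08 and 0.05.

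The labels and the make-up of the samples were checked with other genes. Myc went from 10.74 ± 0.24 to 7.77 ± 0.29 (n = 3). The N-myc gene was not among the genes checked here. Cdkn1a, which encodes p21, rose 16.1-fold from 6.51 ± 0.79 to 10.52 ± 0.36 (limma, adjusted p = 0.000457). The part of Cdkn1a in the values of the mitotic genes was not tested. Of the gate genes, Cd48 lay at 11.09 to 11.69 in all pools. Slamf1 (CD150) lay at 7.74 to 8.74 in control and at 8.40 to 9.58 in dKO. Its difference of 0.78 ± 0.34 did not pass (limma, adjusted p = 0.264). Kit, which is not named in the gate, lay at 8.66 to 9.32 in all pools. The Sca1 gene Ly6a was not matched. The tissue label of control 1 names LT-HSCs, long-term stem cells, while its gate and title match the other pools. Markers of several cell types moved with the groups. The median level of 14 T and NK cell markers was 5.87 to 6.22 in control and 7.10 to 7.26 in dKO, with 8 higher by limma, led by Nkg7 (1.94) and Il2rb (1.80). Of the defining T cell genes in that list Cd3d rose by 1.03, Cd3g (1.49) and Cd3e (0.97) did not pass, and Cd4 (-0.14), Cd8a (-0.36) and Cd247 (-0.45) lay on the other side of 0 and did not pass. For 12 megakaryocyte markers the median level was 6.76 to 6.997 and 7.54 to 8.04 with 7 higher, led by Selp (3.52) and Ppbp (4.87). Gp1bb (0.40), Gp9 (0.25), Vwf (0.21) and Gp6 (0.07) were above 0 and did not pass. Clec1b (-0.29) lay below 0 and did not pass. For 9 mast cell and basophil markers the median level was 6.29 to 6.53 and 7.68 to 9.13 with 5 higher. Gzmb (5.54) and Cma1 (2.53) led these, though Gzmb is not particular to mast cells and basophils. Ms4a2 (1.05), Tpsb2 (0.49), Tpsab1 (0.19) and Hdc (0.15) were above 0 and did not pass. For 10 erythroid markers the median level was 8.53 to 8.77 and 9.11 to 9.44. Car1 (0.78) and Alas2 (1.29) were higher and Tfrc (-1.35) lower. For 13 granulocyte and monocyte markers the median level was 7.91 to 8.67 and 5.94 to 7.75. Irf8 (-2.33), Csf1r (-2.44) and Lyz2 (-1.62) were lower. For 14 B cell and lymphoid progenitor markers the median level was 6.04 to 6.77 and 5.61 to 6.33, with 5 lower. Dntt (-4.99) and Flt3 (-2.73) led these. In this list 9 genes were below 0. Cd79a (0.40), Cd79b (0.26), Ms4a1 (0.26), Pax5 (0.10) and Vpreb3 (0.01) lay above 0 and did not pass. Over all genes 2.85% were called lower and 3.12% higher. Values in brackets are log2 fold changes. No RMA value is a true 0, so absence of a marker cannot be read from it. The part of these shifts in the values of the mitotic genes was not tested.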

How the data were processed

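Trizol extracts of the sorted cells went through 2 rounds of amplification with a Nugen kit and biotin labelling, per the labels' protocols. The deposited table holds log2 values that the authors computed with RMA, as the submitters' processing notes state. RMA removes background, makes the arrays' distributions equal and condenses the probes of a probe set, and it compresses changes of dim probe sets. Its version, and whether the 6 arrays went in together, is not given in the sources used. Medians of the arrays ran from 5.91 to 5.94. The number of arrays limits the precision.

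Of 45101 probe sets, 34945 had 1 symbol in the platform annotation, 932 had several and 9160 none, apart from 64 controls; 34741 symbols were updated by gene identifier from RefSeq (GRCm38.p6). Probe sets are known by identifier only, so similar sequences such as pseudogenes of the members may share signal. Groups came from the titles. Fits used limma 3.58.1 in R 4.3.3 (two-sided, default eBayes); summaries and figures used pandas 2.3.3 and matplotlib 3.10.9. Every member is named. Of each further cell cycle list, the members called and the 2 with the smallest p are named. Of each marker list, those with the smallest p are named. Markers added after values were seen were Cd3g, Cd3e, Cd4, Cd8a, Cd247, Cd79a, Cd79b, Ms4a1, Pax5, Vpreb3, Ms4a2, Tpsb2, Tpsab1 and Hdc. So were Mpo, Prtn3, Ctsg, S100a9, Elane, S100a8, Cd14, Csf3r, Fcgr3, Itgam, Gp1bb, Gp9, Vwf, Gp6 and Clec1b. For the printed promoters, Prc1, Ccnb2 and Cdk1 were picked after values were seen. Members and lists were chosen with earlier results of these data known.

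In 10 simulated sets of 3 dKO against 3 control arrays (18193 genes, 200 of them changed), the fit found 36.4% of the 2-fold changes, 1.6% at 1.5-fold and 85.6% at 4-fold. False calls made up 4.62%. Changes under 2-fold were thus mostly missed in these simulated sets. The fit of the real arrays called 1086 genes, and the adjustment depends on how many genes change. The shares found in the simulation therefore cannot be carried over to the real arrays. The alternatives were other choices of probe set and threshold, a filter on dim genes, 3 scalings, trend and robust variances, unshared variances, weights for arrays, the replicate number as a block, and fits without single pools.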

Additional observations from a re-analysis of the deposited data

How the results depend on the processing

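No member reached a call upwards in any alternative. The number of members lower was 1 with the mean of all probe sets, 0 without variance sharing, 0 at an adjusted p under 0.01, 0 without control 1 and dKO 1 together (pools with Xist at 9.10 and 10.50 against 5.03 to 5.86 elsewhere), and 0 to 2 with each pool left out. It was 1 with the replicate block, under which Racgap1 had limma adjusted p = 0.0502. Over all genes same-numbered pools did not deviate together (correlations of 0.06, -0.00 and 0.02), so the numbers were not taken as pairs. The pools numbered 1 did share the high Xist values, which a correlation over all genes cannot show. The number of genes called was 1697 with array weights, 70 without variance sharing, 437 at an adjusted p under 0.01, 578 without control 1 and dKO 1 together, and 572 to 1081 with each pool left out. The signs of members near 0 are not settled. With the mean of probe sets Cdc20 was at -0.066, Cdca8 at -0.016, Top2a at -0.043 and Tpx2 at -0.14. Without _x_at and _s_at probe sets Cdc20 was at -0.19 and Cdca8 at -0.063. With equal medians Cdca8 was at -0.00016 and Top2a at -0.0074, and with array weights Cenpe was at 0.035 and Hmmr at 0.0038. Without control 1 and dKO 1 together Cdca8 was at -0.022, Cdc20 at -0.0067, Kif20a at 0.049 and Cdc25c at 0.0036. With single pools left out the ranges that crossed 0 were -0.039 to 0.074 for Cdca8, -0.077 to 0.094 for Top2a, -0.066 to 0.087 for Cdk1, -0.026 to 0.21 for Tpx2, -0.0063 to 0.36 for Cdc20, -0.29 to 0.0090 for Cdc25c, -0.25 to 0.0061 for Kif20a, -0.19 to 0.088 for Cenpe and -0.41 to 0.0038 for Hmmr. The cause of these changes was not tested.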
